A study of Mus musculus with 12 samples.

Results

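The 44 genes described here drive cell division and DNA replication: they encode mitotic kinases and checkpoint proteins, spindle proteins, cyclins of the early cycle, the proteins that load and run the replication fork, enzymes that make deoxynucleotides, and 2 transcription factors. They were chosen by name, though with earlier results of these data known, and for each the probe with the brightest mean stands for the gene. Of the 44, 42 had at least 1 named probe on the array (89 probes in all), and 34 passed the detection filter and were tested among 10641 genes. Mki67 and Ccnb1 had no named probe, so they have no expression values here and enter the promoter counts only. The mice were B6 males matched for age, and total RNA of their freshly isolated liver cells went onto 12 Illumina bead arrays. The 4 groups held 3 arrays each: hepatocellular carcinoma (HCC), which the labels call fully malignant, normal hepatocytes, premalignant hepatocytes labelled aggregate, and premalignant hepatocytes labelled non-aggregate. HCC was induced by injection of diethylnitrosamine (DEN), a carcinogen that liver cells activate, and the labels give no dose, age or time of sampling. They do not say whether the premalignant cells came from injected mice, nor what the mice of the normal hepatocytes were given. The HCC and normal arrays shared a chip, and the arrays of both premalignant groups shared another, so HCC was compared with normal hepatocytes and aggregate with non-aggregate cells. In any comparison across the chips, chip and group cannot be told apart. Whether replicates come from separate animals is not in the labels, and p-values reflect the spread among these arrays alone.

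Adult hepatocytes rest outside the cell cycle and re-enter it after injury. D-type cyclins with CDK4 and CDK6 phosphorylate the RB proteins, which frees E2F factors to turn on the genes of DNA replication. Later in the cycle, FOXM1 and the MuvB complex with B-MYB turn on the mitotic genes, through promoter elements called the cell cycle genes homology region (CHR) and through CCAAT boxes bound by NF-Y. In resting cells the MuvB complex joins E2F and RB-family proteins to hold these genes down. Mitotic transcripts are therefore widely read as a measure of how many cells in a sample divide.

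The promoters of the members carry these elements, and 6 are printed here: Prc1 and Cdc20 as the mitotic and spindle members with the largest fitted changes in HCC, Plk1 as a kinase of mitotic entry, Cdk1 as the kinase that starts mitosis, and Mcm6 and Mcm5 for the E2F letters they share. Each is 300 bases long, from 250 bases before the annotated start to 50 from the start on, taken from RefSeq on build GRCm38.p6. Prc1 lies at chr7:80294201-80294500 on the plus strand, Plk1 at chr7:122159185-122159484 on the plus strand and Cdc20 at chr4:118437294-118437593 on the minus strand. Cdk1 lies at chr10:69352863-69353162 on the minus strand, Mcm6 at chr1:128359656-128359955 on the minus strand and Mcm5 at chr8:75109259-75109558 on the plus strand. Sequences read 5′ to 3′ on the gene's strand, and capitals mark 3 elements on either strand. The CHR was searched as the letters TTTGAA and also as the variant letters TTCGAA. The E2F site was searched as TTTCCCGC, TTTGGCGC, TTTCGCGC or TTTGCCGC. The box bound by NF-Y was searched as CCAAT, which reads ATTGG where it lies on the other strand.
Prc1: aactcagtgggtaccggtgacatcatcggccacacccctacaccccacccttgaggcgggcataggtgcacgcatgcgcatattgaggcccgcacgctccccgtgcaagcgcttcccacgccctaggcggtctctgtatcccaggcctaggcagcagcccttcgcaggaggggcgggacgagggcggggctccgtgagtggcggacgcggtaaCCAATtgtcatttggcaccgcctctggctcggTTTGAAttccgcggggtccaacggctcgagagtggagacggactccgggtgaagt
Plk1: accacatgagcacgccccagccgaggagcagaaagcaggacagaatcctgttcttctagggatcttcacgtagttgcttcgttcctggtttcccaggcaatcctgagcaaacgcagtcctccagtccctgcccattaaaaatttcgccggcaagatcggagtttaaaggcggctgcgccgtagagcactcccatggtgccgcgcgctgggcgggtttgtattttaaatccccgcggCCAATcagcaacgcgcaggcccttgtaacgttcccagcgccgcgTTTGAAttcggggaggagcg
Cdc20: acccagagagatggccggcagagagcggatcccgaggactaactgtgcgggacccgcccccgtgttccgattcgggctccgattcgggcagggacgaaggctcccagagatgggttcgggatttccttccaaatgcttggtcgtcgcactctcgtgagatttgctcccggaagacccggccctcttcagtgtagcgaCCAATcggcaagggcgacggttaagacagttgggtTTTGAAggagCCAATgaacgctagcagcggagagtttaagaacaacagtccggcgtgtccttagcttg
Cdk1: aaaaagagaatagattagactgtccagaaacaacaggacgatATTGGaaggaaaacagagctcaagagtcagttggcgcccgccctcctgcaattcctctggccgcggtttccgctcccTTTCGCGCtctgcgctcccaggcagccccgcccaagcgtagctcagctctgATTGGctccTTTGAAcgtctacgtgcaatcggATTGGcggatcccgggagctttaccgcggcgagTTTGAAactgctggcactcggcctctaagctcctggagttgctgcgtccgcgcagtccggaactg
Mcm6: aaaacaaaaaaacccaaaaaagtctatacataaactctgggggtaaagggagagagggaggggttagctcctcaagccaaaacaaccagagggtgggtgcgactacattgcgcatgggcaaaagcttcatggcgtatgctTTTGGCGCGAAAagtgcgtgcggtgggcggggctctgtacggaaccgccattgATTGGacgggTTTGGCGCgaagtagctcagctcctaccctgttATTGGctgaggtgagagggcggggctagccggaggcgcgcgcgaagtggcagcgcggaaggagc
Mcm5: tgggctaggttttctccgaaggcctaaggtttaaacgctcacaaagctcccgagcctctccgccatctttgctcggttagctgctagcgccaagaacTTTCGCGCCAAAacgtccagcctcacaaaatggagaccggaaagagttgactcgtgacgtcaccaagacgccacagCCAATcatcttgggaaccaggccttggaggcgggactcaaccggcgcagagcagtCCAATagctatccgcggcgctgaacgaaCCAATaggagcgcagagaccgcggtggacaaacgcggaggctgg
The 4 mitotic promoters each hold a CHR with a CCAAT box before it, at a distance of 32 bases in Prc1, 35 in Cdc20, 33 for the CHR nearest the start in Cdk1 and 44 in Plk1, counted from first base to first base. Neither Mcm promoter holds a CHR. Both hold the same 12 letters, in which E2F sites of both strands overlap: they read TTTGGCGCGAAA in Mcm6 and TTTCGCGCCAAA, its reverse complement, in Mcm5.

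Over all members, 33 of 44 matched a RefSeq promoter (35 promoters, since Prc1 and Mcm7 have a pair each). A CHR was found in 15 of 18 promoters of the mitotic and spindle members (83.3%), in 2 of 17 promoters of the other members (11.8%) and in 19.2% of all 32851 mouse promoters of that length. The 3 mitotic and spindle promoters without one were those of Birc5, Nusap1 and Ccnb1. A CCAAT box was found in 88.9% of the mitotic and spindle promoters, 58.8% of the others and 37.4% of all promoters. Each of those 15 promoters with a CHR also held a CCAAT box, a pair that 7.52% of all promoters held. An E2F site was found in 6 of 9 promoters of the replication licensing and fork members (66.7%), in 1 of 18 mitotic and spindle promoters (5.56%), which was Cdk1, and in 2.26% of all. The TATA box TATAAA was found in 0 of 35 member promoters and in 13.6% of all. The members differ by role in these letters, and a match is a description of the letters only.

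**Figure D1:**
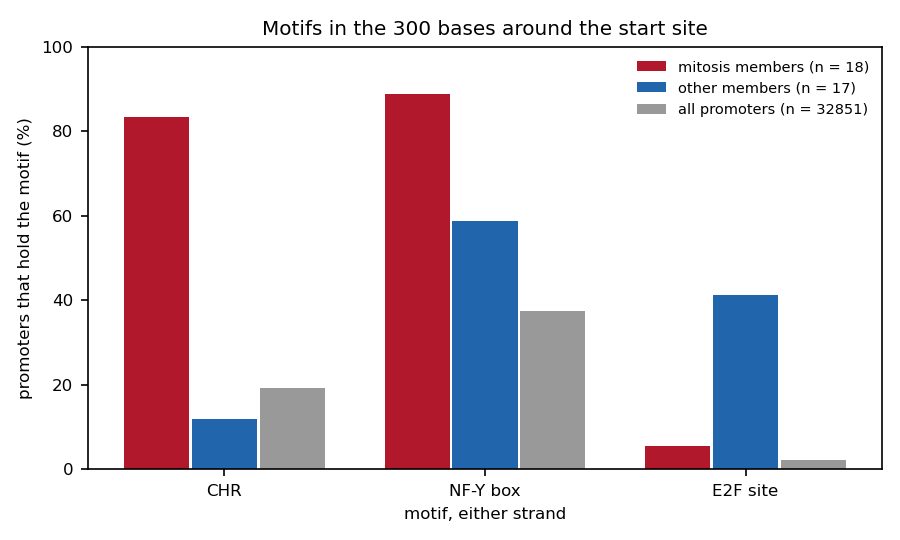
Share of promoters (y axis, percent) that hold a CHR, an NF-Y (CCAAT) box or an E2F site on either strand (x axis), for the 18 promoters of mitotic and spindle members, the 17 of other members and all 32851 promoters. The CHR bar stands at 83.3% for mitotic and spindle members and at 11.8% for the other members.

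More of the members were detected in HCC than in any other group. At a detection p below 0.05 on all 3 arrays, 29 of the 42 members with a probe were detected in HCC and 18 in normal hepatocytes. In the premalignant cells, 25 were detected in aggregates and 18 in non-aggregates. Members detected on no array of the group numbered 7 in HCC and 19 in normal hepatocytes, and 8 in aggregates and 15 in non-aggregates. Over all genes tested, 87.1% were detected on all 3 arrays in HCC and 75.2% in normal hepatocytes, and 82.2% in aggregates and 79.1% in non-aggregates, so detection was also wider in HCC and in aggregates over all genes. These shares cover only genes that passed the detection filter, while the 42 members include 8 below it. The bases therefore differ, and the levels cannot be set against each other. Single arrays detected 35, 34 and 29 members in HCC and 21, 22 and 19 in normal hepatocytes. The counts were 28, 29 and 30 in aggregates and 20, 25 and 24 in non-aggregates.

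Of the 42, 8 stayed below the filter, which asked for detection on 3 of the 12 arrays. These were the cyclins Ccnb2 and Ccna2, the checkpoint kinase Bub1, the ubiquitin carrier Ube2c, the kinesins Kif11 and Kif20a, the spindle factor Tpx2 and the cytokinesis regulator Racgap1. Tpx2 came closest: it had 5.11, 5.38 and 4.46 in HCC on the log2 scale of normalized intensity, detected on 2 of 3 arrays, and 4.28, 4.20 and 4.27 in normal hepatocytes, detected on none. Kif11 was detected on 1 HCC array and on no other. The remaining 6 were detected on none of the 12 arrays, and an undetected probe does not show that its transcript was absent.

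HCC replicate 3 stood apart from the other HCC arrays in these genes. It was the lowest of the 3 HCC arrays for 33 of the 34 tested members (97.1%), all but Mcm7, against 36.3% of all genes tested and 23.8% of the 2451 genes higher in HCC. HCC replicate 2 was the highest for 27 of the 34 (79.4%), against 35.2% of all genes. The mean of the 8 tested mitotic entry and exit members was 6.32, 6.90 and 5.14 in HCC replicates 1, 2 and 3, and 4.63, 4.81 and 4.56 in normal hepatocytes. The mean of the 4 deoxynucleotide enzymes was 7.08, 7.11 and 5.87 on the HCC arrays. Replicate 3 had the most probes detected of the 12 arrays, 19482. The summed normalized intensity of 12 stellate and fibroblast markers was 9277, 11600 and 20370 on HCC replicates 1, 2 and 3, but their mean log2 level was 7.71, 8.45 and 8.41, so replicate 3 stood out in the sum and not in the mean. The macrophage and endothelial marker sums were highest on replicate 2, at 10510 and 10530. Sox9, a progenitor and bile duct factor, read 2717 on replicate 3, against 756 and 970.5 on the other HCC arrays, while the bile duct markers Epcam, Krt19 and Krt7 were undetected in HCC. The part of these cells in the pattern was not tested.

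**Figure D2:**
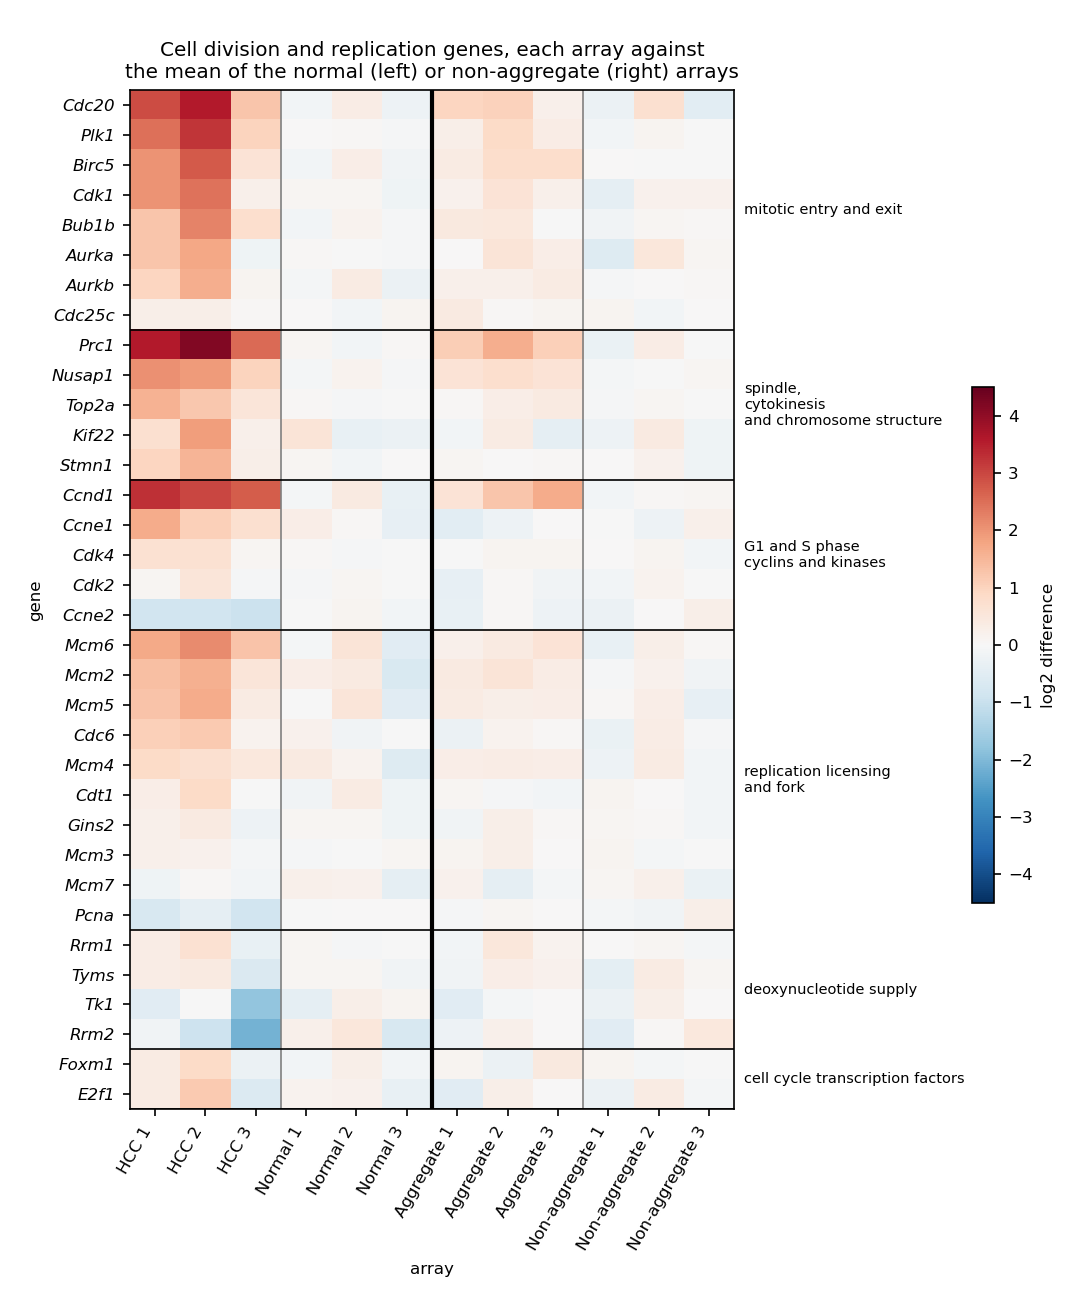
Log2 difference of each of the 34 tested members (rows, by role) on each of the 12 arrays (columns) from the mean of the normal hepatocyte arrays (left block) or the non-aggregate arrays (right block). The HCC columns are darkest red for Prc1, Cdc20 and Ccnd1, and Ccne2 and Pcna are blue on all 3 HCC arrays. HCC 3 has the lowest value of the 3 HCC columns in every row but Mcm7.

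Of the 34 tested members, 18 were higher in HCC than in normal hepatocytes, 2 were lower and 14 were not called. The test was limma's moderated test with Benjamini-Hochberg adjustment over all 10641 genes and a call at an adjusted p below 0.05. By that rule 23% of all genes were higher in HCC and 26% lower, 49% in either direction. The median log2 change was 0.85 over the 34 members and -0.08 over all genes. The higher ones were 10 mitotic and spindle genes, 3 cyclins or kinases of G1 and S phase and 5 replication genes, the lower ones Ccne2 and Pcna. The deoxynucleotide enzymes and both transcription factors held no call. Without HCC replicate 3, 24 members were called, 22 higher and 2 lower, the added ones being Aurka, Kif22, Cdt1 and Foxm1. The share of all genes called in that refit is not given here, so the gain cannot be read as particular to the members. The filter also matters to the counts, since 6 members passed it only with the HCC arrays (Aurkb, Cdc25c, Cdc6, Gins2, Mcm3 and Top2a). Of the 14 members detected on all 12 arrays, 6 were higher in HCC (Ccnd1, Cdk4, Mcm4, Mcm5, Mcm6 and Stmn1), 1 was lower (Pcna) and 7 were not called, with a median of 0.34. Of 7557 genes detected on all 12 arrays, 20% were higher and 32.1% lower, with a median of -0.17. In bulk samples, fewer cells of a type and less RNA per cell cannot be told apart.

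**Figure D3:**
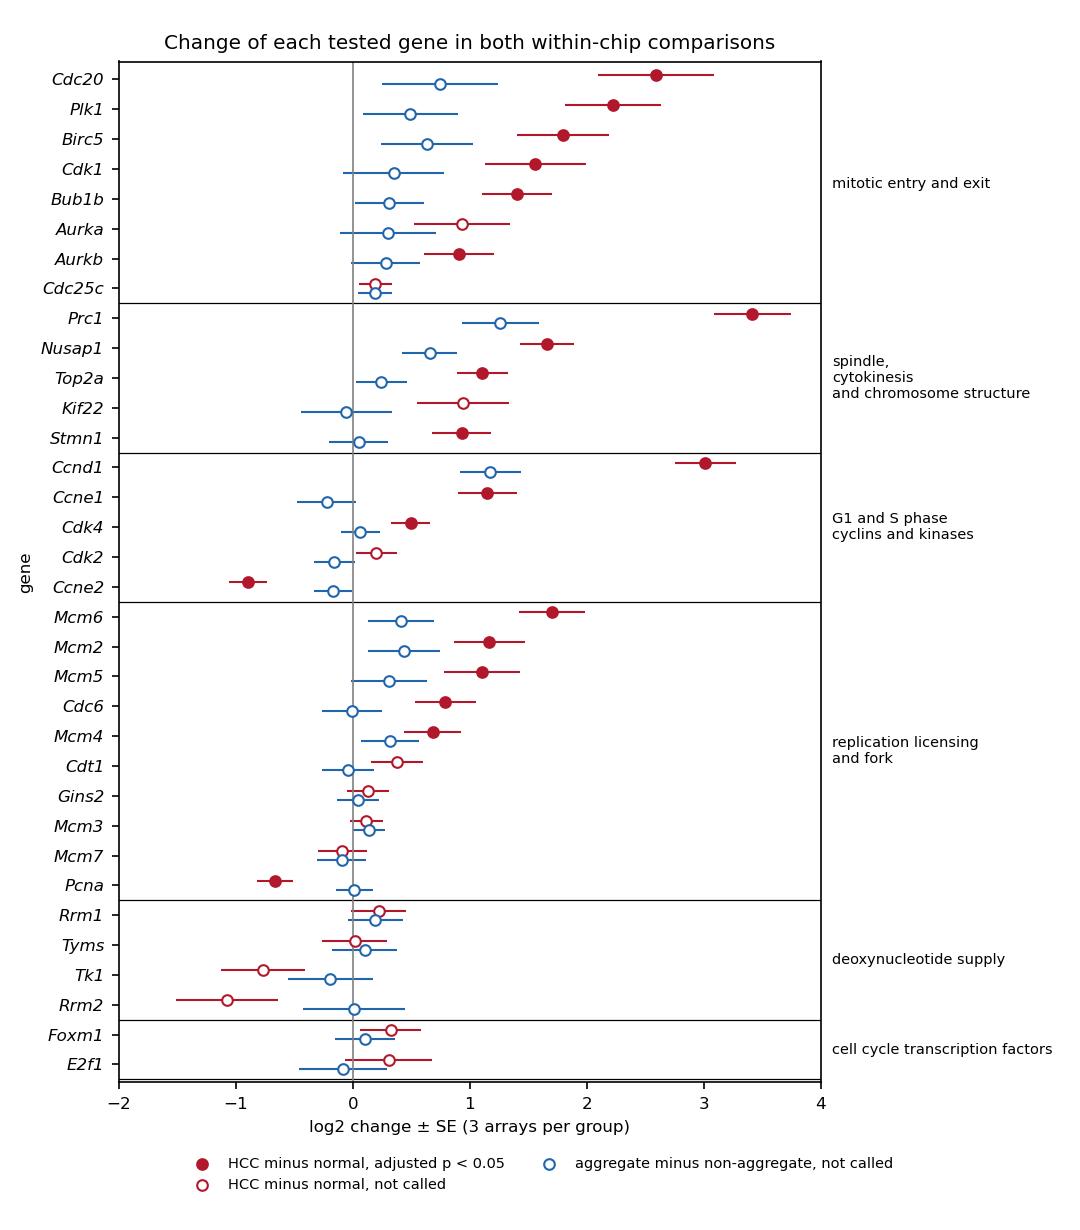
Log2 change (x axis) with its standard error for each of the 34 tested members (rows, by role), HCC minus normal hepatocytes in red and aggregate minus non-aggregate in blue, with filled points at an adjusted p below 0.05. HCC changes run from -1.08 (Rrm2, not called) to 3.42 (Prc1), and all aggregate points are open, with Prc1 at 1.26 and Ccnd1 at 1.18.

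Among the genes of mitotic entry and exit, 6 of 8 tested were higher in HCC, with a median log2 change of 1.48 over the 8. Over all genes 23% were higher. None of the 8 was detected on all 12 arrays, and Aurkb and Cdc25c passed the filter only with the HCC arrays, so the count depends in part on the filter. Cdc20, which activates the anaphase-promoting complex, had log2 values of 7.52, 8.14 and 5.83 in HCC and 4.46, 4.89 and 4.35 in normal hepatocytes, where no array detected it. All 3 HCC arrays lay above all normal arrays, and Cdc20 was at least 4.87-fold higher in HCC (log2 change 2.60, SE 0.50, adjusted p = 0.00111). A fold is given as a bound where the lower group had no detected array. Plk1, the polo-like kinase of mitotic entry and spindle assembly, had 6.90, 7.62 and 5.41 in HCC and 4.42, 4.47 and 4.37 in normal hepatocytes. Its groups did not overlap either, and it was at least 3.40-fold higher (log2 change 2.22, SE 0.41, adjusted p = 0.000826).

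Birc5, survivin, the subunit that places Aurora B at centromeres, had 6.88, 7.61 and 5.47 in HCC and 4.72, 5.15 and 4.70 in normal hepatocytes. It rose 3.48-fold (log2 change 1.80, SE 0.40, adjusted p = 0.00272), with no overlap. Cdk1, the kinase whose activity starts mitosis, had 6.80, 7.23 and 5.01 in HCC and 4.88, 4.88 and 4.60 in normal hepatocytes. Replicate 3 cleared the highest normal value by a small margin only, and the rise was at least 2.77-fold (log2 change 1.56, SE 0.43, adjusted p = 0.0106). Bub1b, the checkpoint kinase BUBR1, was at least 2.09-fold higher (log2 change 1.40, adjusted p = 0.00207). Aurkb, the Aurora kinase of chromosome alignment and cytokinesis, rose 1.88-fold (adjusted p = 0.0232), although its HCC and normal arrays overlapped. Its call was lost without any 1 of 4 arrays, HCC replicate 1 or 2 or normal replicate 1 or 3, with adjusted p-values of 0.0563, 0.0898, 0.0643 and 0.0788.

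The 2 members of this role without a call were Aurka, the spindle pole kinase, and Cdc25c, the phosphatase that activates CDK1. Aurka had 6.41, 6.92 and 4.96 in HCC and 5.21, 5.16 and 5.12 in normal hepatocytes. HCC replicates 1 and 2 lay above every normal array and replicate 3 below all of them, and the log2 change of 0.93 (SE 0.41) had an adjusted p of 0.0777. Cdc25c had a log2 change of 0.19 (adjusted p = 0.285) and was detected on 2 HCC arrays and on no normal array.

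Among the spindle, cytokinesis and chromosome genes, 4 of 5 tested were higher in HCC. Of the 5, Top2a passed the filter only with the HCC arrays, and Stmn1 alone was detected on all 12. Prc1, which bundles the microtubules of the central spindle, had the largest fitted log2 change of all members. It had 8.09, 8.69 and 7.07 in HCC and 4.62, 4.40 and 4.57 in normal hepatocytes. The bead signal behind these values was 363, 484 and 200 in HCC, against 61.4, 57.7 and 61.7 in normal hepatocytes. No normal array detected Prc1, and it was at least 8.40-fold higher in HCC (log2 change 3.42, SE 0.33, adjusted p = 8.93e-06). Nusap1, which binds spindle microtubules near chromosomes, had 6.57, 6.42 and 5.49 in HCC and 4.41, 4.64 and 4.46 in normal hepatocytes. It was at least 2.44-fold higher (log2 change 1.66, SE 0.23, adjusted p = 0.000124), with no overlap.

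Top2a, the topoisomerase that untangles chromosomes, had 5.89, 5.52 and 4.84 in HCC and 4.37, 4.26 and 4.29 in normal hepatocytes. Replicate 3 was again the lowest HCC array, still above every normal array, and the rise was at least 1.45-fold (log2 change 1.11, SE 0.22, adjusted p = 0.00140). Stmn1, stathmin, which destabilises microtubules and was detected on all 12 arrays, rose 1.90-fold (log2 change 0.93, SE 0.25, adjusted p = 0.00929). Kif22, a kinesin that moves chromosome arms, had 5.81, 6.98 and 5.30 in HCC and 5.68, 4.74 and 4.84 in normal hepatocytes. The groups overlapped and its log2 change of 0.94 was not called (adjusted p = 0.0637).

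**Figure D4:**
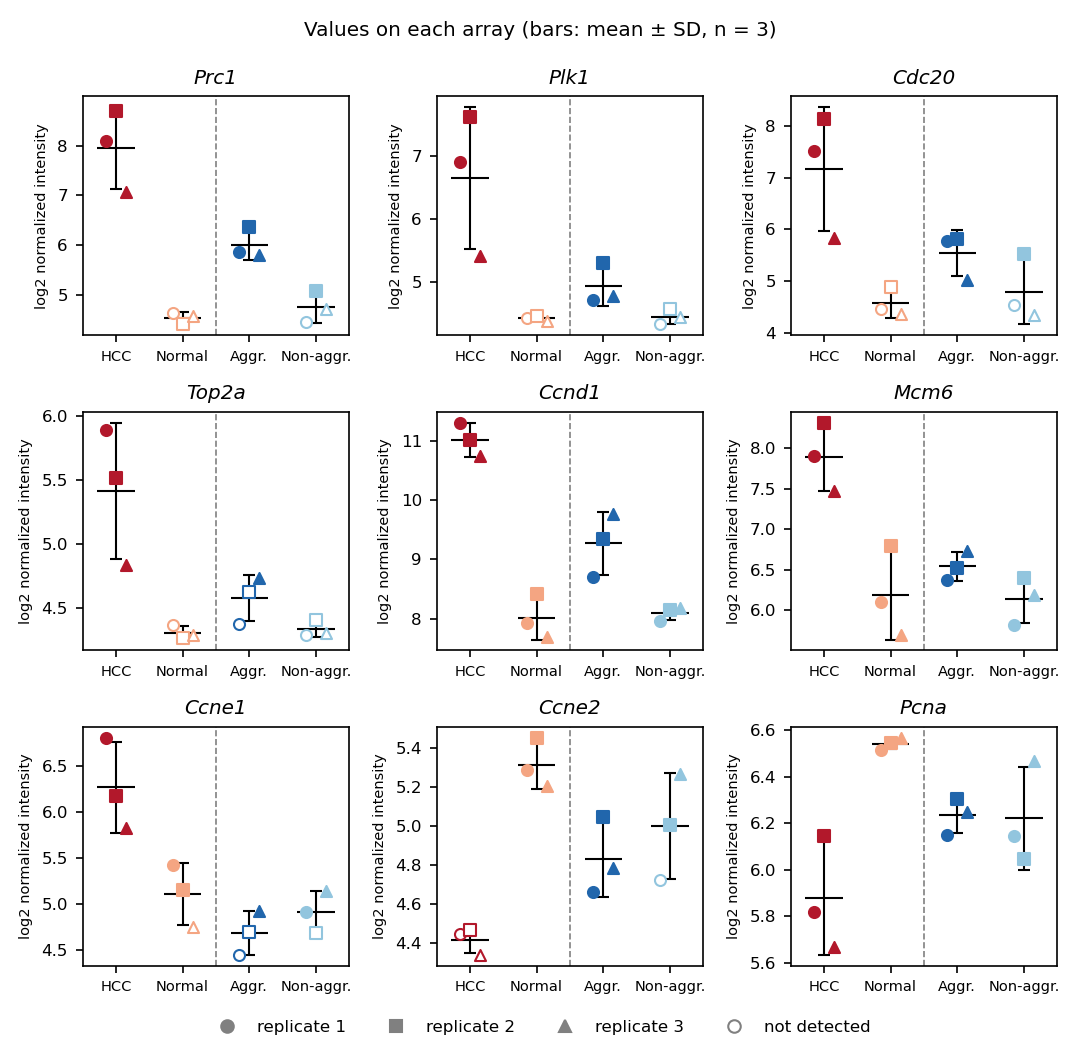
Log2 normalized intensity (y axis) of 9 members on each array, by group on the x axis in the order HCC, normal, aggregate, non-aggregate, with the mean and SD of 3 arrays as bars and the chips split by a dashed line. Open symbols were not detected: Prc1, Plk1, Cdc20 and Top2a are open on all 3 normal arrays and Ccne2 on all 3 HCC arrays, and the y axes differ between panels and do not start at 0.

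The cyclins and kinases of G1 and S phase moved in both directions. Ccnd1, cyclin D1, the partner of CDK4 and CDK6, had 11.31, 11.01 and 10.74 in HCC and 7.93, 8.41 and 7.69 in normal hepatocytes. It was detected on all 12 arrays, its groups lay far apart, and it rose 8.08-fold (log2 change 3.01, SE 0.26, adjusted p = 4.06e-06). All 3 Ccnd1 probes gave the same call, with log2 changes of 3.01, 3.08 and 3.21. Ccne1, cyclin E1, which with CDK2 starts S phase, had 6.80, 6.17 and 5.82 in HCC and 5.43, 5.16 and 4.76 in normal hepatocytes. It rose 2.22-fold (log2 change 1.15, SE 0.25, adjusted p = 0.00265), with no overlap.

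Ccne2, cyclin E2, moved the other way from Ccne1. It had 4.45, 4.47 and 4.34 in HCC, where no array detected it, and 5.29, 5.45 and 5.21 in normal hepatocytes, where all did. It was at least 1.63-fold lower in HCC (log2 change -0.89, SE 0.16, adjusted p = 0.000823). The direction held on every pair of an HCC and a normal array. Cdk4 had 7.92, 7.92 and 7.31 in HCC and 7.27, 7.17 and 7.22 in normal hepatocytes, a 1.41-fold rise (adjusted p = 0.0275). Its 2 probes disagreed: the brighter one rose by 0.50 on the log2 scale and the other had a log2 change of -0.70 (adjusted p = 0.0350), and their mean changed by -0.10 (adjusted p = 0.657). The call of the brighter probe was also lost without any 1 of 5 of the 6 arrays, all but HCC replicate 3, with adjusted p-values between 0.0515 and 0.0928. The direction of Cdk4 therefore depends on the probe. Cdk2 had a log2 change of 0.20 (adjusted p = 0.369). Dimmer Cdk2 probes had -0.33, -0.20 and -0.58, none of them called, so the sign of its change also differed between probes.

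In the replication group, 5 of 10 tested members were higher in HCC and 1 was lower, with a median log2 change of 0.53. Of these members, Cdc6, Gins2 and Mcm3 passed the filter only with the HCC arrays. Mcm2 to Mcm7 encode the ring-shaped helicase that is loaded at origins. Mcm6 had 7.90, 8.32 and 7.47 in HCC and 6.10, 6.79 and 5.69 in normal hepatocytes, with no overlap and a 3.26-fold rise (log2 change 1.70, SE 0.28, adjusted p = 0.000407). Its 3 probes gave log2 changes of 1.70, 1.40 and 1.80, all called. Mcm2 had 6.56, 6.83 and 5.74 in HCC and 5.5, 5.61 and 4.52 in normal hepatocytes. It rose 2.24-fold (log2 change 1.17, SE 0.30, adjusted p = 0.00750).

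Mcm5 had 7.19, 7.60 and 6.28 in HCC and 5.90, 6.46 and 5.40 in normal hepatocytes. HCC replicate 3 lay below normal replicate 2, and the 2.15-fold rise (adjusted p = 0.0143) was not called without HCC replicate 2 or without normal replicate 3 (adjusted p = 0.0605 each). Mcm4 had 8.24, 8.07 and 7.82 in HCC and 7.78, 7.54 and 6.76 in normal hepatocytes, a 1.60-fold rise (adjusted p = 0.0356). Without normal replicate 3, its lowest array, the log2 change of Mcm4 was 0.38, against 0.68 with it, and was not called (adjusted p = 0.135). It was not called without HCC replicate 1 or 2 either (adjusted p = 0.102 and 0.0748).

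The other 2 Mcm members gave no call. Mcm3 had 4.79, 4.77 and 4.49 in HCC and 4.5, 4.54 and 4.66 in normal hepatocytes, was detected on no normal array, and had a log2 change of 0.11 (adjusted p = 0.519). Mcm7 was detected on all 12 arrays. It had 5.60, 5.82 and 5.65 in HCC and 6.0, 5.96 and 5.39 in normal hepatocytes, a log2 change of -0.09 (SE 0.21, adjusted p = 0.739).

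Cdc6, the loader that brings the Mcm ring to origins, was at least 1.29-fold higher in HCC (log2 change 0.79, adjusted p = 0.0236). Its groups overlapped, since HCC replicate 3 at 4.61 lay below normal replicate 1 at 4.64. The call was lost without any 1 of 4 arrays (HCC replicate 1 or 2, normal replicate 2 or 3), with adjusted p-values between 0.0522 and 0.0932. Cdt1, the other loader, had a log2 change of 0.37 (adjusted p = 0.184), and Gins2, a subunit of the fork complex GINS, 0.13 (adjusted p = 0.583).

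Pcna, the sliding clamp of the replication fork, was lower in HCC. It had 5.82, 6.15 and 5.67 in HCC and 6.52, 6.55 and 6.57 in normal hepatocytes, without overlap and with all 12 arrays detecting it. The log2 change was -0.67 (SE 0.16, 1.59-fold lower, adjusted p = 0.00425). The size depended on the scaling: with median scaling in place of quantile normalization it was -0.15 (adjusted p = 0.551), while the median of all genes moved to 0.18. With the authors' deposited normalized values it was -0.25 (adjusted p = 0.0839). The array holds 1 named Pcna probe, so no second probe could be set beside it.

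None of the 4 deoxynucleotide enzymes was called. Rrm2, the regulated subunit of ribonucleotide reductase, had 6.49, 5.72 and 4.55 in HCC and 6.87, 7.16 and 5.95 in normal hepatocytes, with a log2 change of -1.08 (SE 0.44, adjusted p = 0.0601). Tk1, thymidine kinase, had 7.16, 7.64 and 5.92 in HCC and 7.27, 7.95 and 7.81 in normal hepatocytes, with -0.77 (adjusted p = 0.0973). Both had their lowest value on HCC replicate 3. The large subunit Rrm1 had a log2 change of 0.22 and thymidylate synthase, Tyms, of 0.02 (adjusted p = 0.461 and 0.963). A dimmer Rrm1 probe rose by 0.68 (adjusted p = 0.0394), and 1 of 3 dimmer Tk1 probes had -0.79 (adjusted p = 0.0208).

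E2f1, which drives replication genes, and Foxm1, which drives mitotic genes, were detected on all HCC and all normal arrays and were not called. E2f1 had 7.0, 7.83 and 6.02 in HCC and 6.79, 6.84 and 6.30 in normal hepatocytes, a log2 change of 0.31 (SE 0.38, adjusted p = 0.523). Foxm1 had 5.49, 5.98 and 4.87 in HCC and 5.0, 5.37 and 5.0 in normal hepatocytes, a log2 change of 0.32 (SE 0.26, adjusted p = 0.320). In both, HCC replicate 3 lay below every normal array. The dimmer Foxm1 probe rose by 0.76 (adjusted p = 0.0392), so Foxm1 too depended on the probe.

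**Figure D5:**
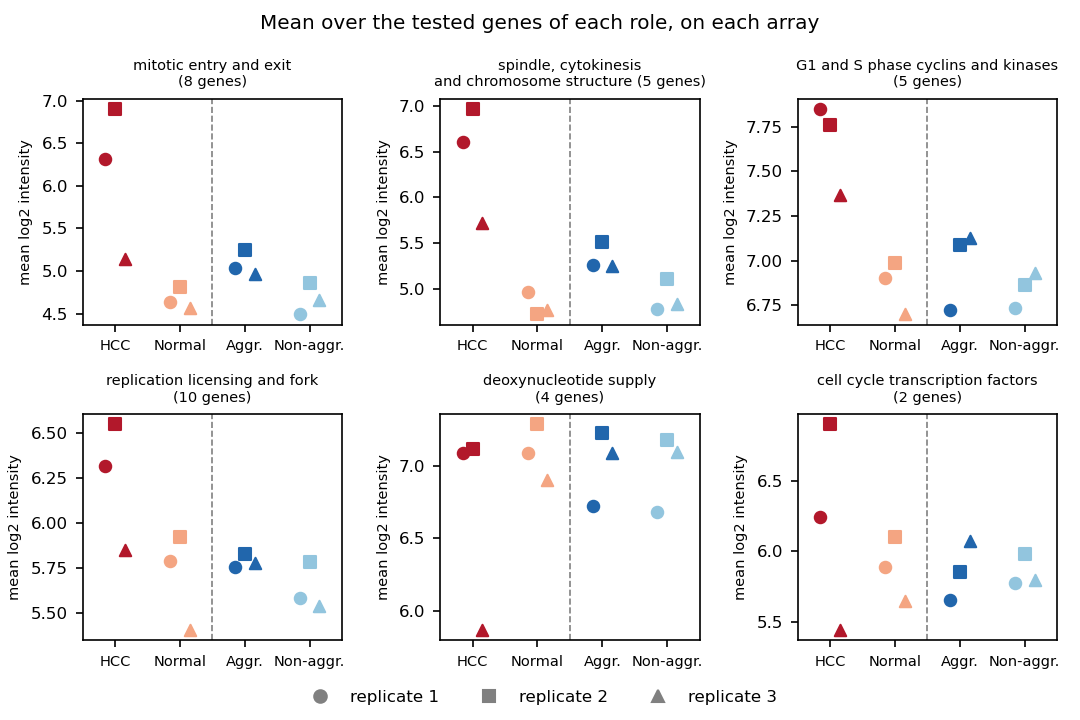
Mean log2 normalized intensity (y axis) over the tested members of each role on each array, by group on the x axis, with a symbol per replicate and the chips split by a dashed line. In HCC the mitotic mean is 6.32, 6.90 and 5.14 and the deoxynucleotide mean 7.08, 7.11 and 5.87, with replicate 3 the lowest in all 6 panels.

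Within the other chip, aggregates were compared with non-aggregates. By limma's test with adjustment over all genes, 0 of 34 members were called, where 0.761% of all genes were higher in aggregates and 0 genes lower. That test took each gene's spread from all 12 arrays, the HCC arrays included, and did not pair same-numbered arrays. The lack of a call therefore does not show that a gene was unchanged. At an unadjusted p below 0.05, 3 members were higher (Prc1, Nusap1 and Ccnd1), against 609 of all 10641 genes higher and 155 lower. The median log2 change was 0.16 over the members and -0.03 over all genes, and 25 of the 34 were above 0. All 3 aggregate arrays lay above all 3 non-aggregate arrays for 7 members (20.6%): Plk1, Aurkb, Birc5, Prc1, Nusap1, Ccnd1 and Mcm2. The same held for 9.44% of all genes.

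Prc1 and Ccnd1 had the largest log2 changes. Ccnd1 had 8.70, 9.35 and 9.76 in aggregates and 7.96, 8.15 and 8.17 in non-aggregates, a log2 change of 1.18 (SE 0.26, adjusted p = 0.0626). Dimmer Ccnd1 probes had log2 changes of 1.34 and 0.76. With the replicate number as a block, Ccnd1 was called (adjusted p = 0.0407, a fit in which 1.08% of all genes were called). Prc1 had 5.85, 6.36 and 5.80 in aggregates, all detected, and 4.44, 5.08 and 4.71 in non-aggregates, where 1 array detected it. Its log2 change was 1.26 (SE 0.33, adjusted p = 0.112, and 0.103 with the replicate block).

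Nusap1 had 5.20, 5.34 and 5.20 in aggregates, all detected, and 4.51, 4.57 and 4.69 in non-aggregates, none detected. Its log2 change was 0.66 (SE 0.23, adjusted p = 0.341). Plk1 was likewise detected on every aggregate array and on no non-aggregate array, at 4.72, 5.30 and 4.79 and at 4.33, 4.57 and 4.44. Its log2 change of 0.49 had an SE of 0.41 and was not called. These values are close to the detection limit. Cdc20 had 5.77, 5.82 and 5.02 in aggregates and 4.54, 5.52 and 4.34 in non-aggregates, which overlapped. Its log2 change was 0.74, and dimmer Cdc20 probes had 0.40, 0.27 and 0.01.

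Birc5 had 5.19, 5.61 and 5.62 in aggregates and 4.86, 4.83 and 4.83 in non-aggregates, without overlap. Dimmer Birc5 probes had log2 changes of 0.03 and 0.50, below the 0.64 of the chosen probe, so the size depended on the probe. Cdk1 had 5.18, 5.61 and 5.19 in aggregates and 4.57, 5.17 and 5.19 in non-aggregates, and Top2a was detected on 1 aggregate and no non-aggregate array. Mcm2 had 5.49, 5.66 and 5.40 in aggregates and 5.02, 5.29 and 4.93 in non-aggregates, without overlap. The log2 changes were 0.64 for Birc5, 0.35 for Cdk1, 0.24 for Top2a and 0.44 for Mcm2, none of them called. Mcm6, Mcm4, Mcm5, Mcm3 and Mcm7 had log2 changes of 0.41, 0.32, 0.31, 0.14 and -0.09, and the other members lay between -0.22 (Ccne1) and 0.74 (Cdc20).

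The same-numbered aggregate and non-aggregate arrays deviated together, with correlations of 0.706, 0.541 and 0.638 between their deviations from the group means. Within every same-numbered pair the aggregate array was the higher for 14 of 34 members (41.2%) and for 19.6% of all genes. In a fit on the 6 premalignant arrays alone with the replicate number as a block, 4 members were called, Prc1, Nusap1, Ccnd1 and Mcm2 (adjusted p = 0.00805, 0.0226, 0.0279 and 0.0429), where 4.6% of all genes were called. That fit was added after the data had been seen. The calls in aggregates therefore rest on how the spread is estimated, while the values of the 4 genes are the same in each fit.

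The HCC change and the aggregate change share no arrays and could be set side by side. Of the 18 members higher in HCC, 16 had a positive aggregate change (88.9%, median 0.33), and of all 2451 genes higher in HCC, 80.1% did (median 0.16). The exceptions were Ccne1 at -0.22 and Cdc6 at -0.01. Of the 2 members lower in HCC, Ccne2 had an aggregate change of -0.17 and Pcna of 0.01.

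The aggregate change was tested against the HCC change as a difference of the 2 differences. It was smaller for 5 members, Prc1 (difference -2.15 on the log2 scale, adjusted p = 0.00746), Ccnd1 (-1.84, adjusted p = 0.00529), Ccne1 (-1.37, adjusted p = 0.0182), Mcm6 (-1.29, adjusted p = 0.0379) and Nusap1 (-1.0, adjusted p = 0.0480). It was higher for Ccne2 (0.72, adjusted p = 0.0438) and Pcna (0.68, adjusted p = 0.0487). Some of these differences rest on undetected values: no normal array detected Prc1 or Nusap1, no non-aggregate array Nusap1 and no HCC array Ccne2, so their sizes are inexact. By the same rule 10.8% of all genes had a difference below 0 and 10% one above 0. Without HCC replicate 3 the count was 16, all smaller, among them Plk1, Cdc20, Cdk1, Aurka, Aurkb, Bub1b, Birc5 and Top2a. Without other single arrays it was 3 to 5, and Prc1, Ccnd1 and Ccne1 were among them each time. The shares of all genes in these refits are not given here.

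Set against normal hepatocytes on the other chip, aggregates were higher for 2 members, and 0 were lower, where 5.07% of all genes were called, 3.33% higher and 1.74% lower. Ccnd1 had 8.70, 9.35 and 9.76 in aggregates and 7.93, 8.41 and 7.69 in normal hepatocytes (log2 change 1.26, adjusted p = 0.0193). Prc1 was at least 2.18-fold higher in aggregates (log2 change 1.47, adjusted p = 0.0265). Leaving out single arrays left 0 or 1 of these calls: Prc1 lost its call without any 1 of the 3 aggregate arrays or without normal replicate 1 or 2, and Ccnd1 without normal replicate 1 or 3 or aggregate replicate 2 or 3. For non-aggregates against normal hepatocytes 0 of 34 members were called by limma, 0 also in each alternative run, where 1.49% of all genes were called, 0.78% higher and 0.714% lower, and the members' median log2 change was -0.03. At an unadjusted p below 0.05, 1 member was higher in non-aggregates, Tk1 (log2 change 0.87), and 1 lower, Rrm2 (-1.05), both with an adjusted p of 0.286.

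Other genes of the cell cycle were read beside the 23% of all genes that were higher in HCC and the 26% that were lower. Of 46 further mitosis genes, 24 were tested, 13 were higher in HCC and 2 lower. Of those 24, 6 passed the detection filter only with the HCC arrays (Aspm, Cdca5, Ckap2, Kif2c, Kif4 and Ncaph), and 5 of these are among the 13, so the count of 13 depends on the filter. Of the 8 that all 12 arrays detected, 3 were higher in HCC and 2 lower. Cdkn3, a phosphatase of CDKs, was at least 7.30-fold higher (adjusted p = 1.31e-05). Cenpa, the centromeric histone, rose by 2.71 on the log2 scale (adjusted p = 6.64e-06), and Pbk, a mitotic kinase, was at least 3.34-fold higher (adjusted p = 0.00187). The lower ones were Bub3, a spindle checkpoint protein, with a log2 change of -0.65 (adjusted p = 0.0146), and the kinesin Kif23 with -0.50 (adjusted p = 0.0424). The chosen Kif23 probe, 1 of 4, was bright in resting cells too, with means of 11.54 in normal hepatocytes and 11.04 in HCC. The other Kif23 probes are not given here.

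Of 43 further replication genes, 34 were tested, 6 were higher in HCC and 8 lower, shares near those of all genes. Of the 24 that all 12 arrays detected, 3 were higher and 8 lower. Uhrf1, which maintains DNA methylation behind the fork, rose by 2.89, the fork protection gene Timeless by 1.62 and the ligase Lig1 by 1.54 (adjusted p = 3.91e-05, 6.98e-05 and 0.000161). Mcm10, a helicase cofactor, fell by 3.07, the origin recognition subunit Orc3 by 1.27 and the GINS subunit Gins1 by 0.90 (adjusted p = 8.45e-05, 0.000437 and 0.00382).

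Regulators of the RB and E2F axis gave 3 higher and 6 lower of 15 tested, of which Rbl1 passed the filter only with the HCC arrays. Ccnd2, cyclin D2, rose by 2.63 (adjusted p = 7.48e-06), the pocket protein gene Rbl1 was at least 1.41-fold higher and the activator E2f2 at least 1.21-fold (adjusted p = 0.000799 and 0.0489). Tfdp2, the partner of E2F proteins, E2f5, a repressor, and the histone-binding Rbbp4 had log2 changes of -1.09, -1.01 and -0.99. In aggregates against non-aggregates 0 of the tested genes of these 3 lists and of the CDK inhibitors were called by limma. At an unadjusted p below 0.05, 6 of these 80 tested genes were higher in aggregates and 3 lower, against 609 and 155 of all 10641 genes. Ccnd2, with a log2 change of 1.07, shared the lowest adjusted p of these lists (0.0689) with the CDK inhibitor Cdkn2b.

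Of 7 genes that inhibit the cyclin-dependent kinases, 5 were higher in HCC and 0 lower. Of the 3 that all 12 arrays detected, 3 were higher. Cdkn2b, p15, an inhibitor of CDK4 and CDK6, was at least 47.6-fold higher (adjusted p = 3.82e-07). Cdkn2a, the locus of p16 and p19ARF, was at least 5.40-fold higher (adjusted p = 0.000111) and was detected on the 3 HCC arrays and on none of the other 9. Cdkn1a, p21, rose by 1.22, Cdkn1c, p57, by 1.14 and Cdkn2c, p18, by 0.73 (adjusted p = 0.00878, 0.00265 and 0.0269). Cdkn1b, p27, had a log2 change of -0.38 and Cdkn2d, p19, of 0.11, neither called. Cdkn2b had 1.60 in aggregates over non-aggregates (adjusted p = 0.0689).

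The label of hepatocytes held in every group: each of 10 hepatocyte markers was detected on all arrays, except Tat in HCC with 2 of 3. Their summed level was 170000 to 180100 in HCC and 201600 to 212300 in normal hepatocytes, and 203200 to 222000 in aggregates and 202200 to 217800 in non-aggregates. Of the 10, 5 fell in HCC, Tat (-2.28) and Ass1 (-1.50) the most, and 1 rose, Alb (1.69). Markers of other cells were also higher in HCC, where 23% of all genes were higher. Of 12 stellate and fibroblast markers 11 were higher in HCC, with Acta2 at 5.14 and Reln at 4.54 on the log2 scale. Their summed level ran from 9277 to 20370 in HCC and from 880.9 to 2044 in normal hepatocytes, where Col1a1, Col1a2, Lrat and Pdgfrb were undetected.

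Of 12 macrophage markers 8 were higher in HCC and 0 lower, led by Cd14 (4.01) and Mpeg1 (3.56), and the lowest log2 change was -0.40. They summed to 8458 to 10510 in HCC and 1154 to 1352 in normal hepatocytes. Marco and Cd5l were undetected in normal hepatocytes, and Timd4 and Cd5l were undetected in HCC. Of 11 endothelial markers 10 were higher, led by Emcn (3.59) and Cdh5 (2.99), and summed to 7305 to 10530 in HCC and 1385 to 3907 in normal hepatocytes. Of the T and NK cell markers 2 of 3 tested were higher in HCC (Ccl5, at least 6.03-fold, and Cd3g, at least 1.18-fold), of the neutrophil markers 1 of 2 (S100a8, 2.5), and the 1 bile duct marker tested, Sox9, by 1.81. The other bile duct markers with a probe, Epcam, Krt19 and Krt7, were undetected on every HCC array. In normal hepatocytes Epcam and Krt19 were undetected and Krt7 was not. The red cell genes gave 2 higher (Hba-a1, 3.82, and Hbb-bt, 3.66) and 2 lower of 5, and 0 of 5 B and plasma cell markers passed the filter.

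In aggregates against non-aggregates, 3 of 12 stellate markers (Reln, 2.52, and Dcn, 2.17, the most), 4 of 11 endothelial (Ramp2, 1.57, and Lyve1, 1.54, the most) and 2 of 12 macrophage markers (Adgre1, 2.23, and Marco) were higher. Of all genes 0.761% were higher. Summed stellate markers ran from 3731 to 5720 in aggregates and from 839.3 to 1500 in non-aggregates. Endothelial sums ran from 4721 to 6956 in aggregates and from 2108 to 2699 in non-aggregates, and macrophage sums from 2485 to 7163 in aggregates and from 888.8 to 2972 in non-aggregates. The part of these cells in the values of the division genes was not tested.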

How the data were processed

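Total RNA was labelled with biotin and hybridised to 12 Illumina arrays, per the protocols in the labels. Per the file headers, the first deposited table holds for each probe on each array a linear average signal intensity, not normalized, with its detection p-value. The other deposited table, of normalized intensity, by a method not given in the sources used here, was an alternative. Gene names came from the platform annotation: it lists 1 gene for 34885 of the 45281 probes, more than 1 for 18, and leaves out 10378. Signal was background corrected by normexp from the detection p-values (offset 16), quantile normalized across all 12 and put on a log2 scale with neqc of limma 3.58.1 in R 4.3.3. The filter kept 19670 probes, those whose detection p was below 0.05 on 3 or more arrays, and of these the one with the highest mean per gene (10641 genes). Probes detected per array ran from 15354 to 19482.

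Each gene was fitted with a mean per group over the 12 arrays (lmFit, eBayes, 2-sided), with Benjamini-Hochberg adjustment of the p-values over all genes. SE is the standard error of the log2 change. For a fold bound, each array of the lower group was given the lowest level of any detected probe, or the gene's own level if that was higher, and the mean of these log2 levels was subtracted from the higher group's. The same-numbered aggregate and non-aggregate arrays were taken as paired from the correlation of their deviations (each above 0.1), while those of HCC and normal hepatocytes, at -0.011, 0.123 and 0.101, were not. Every member is accounted for; values on each array are given for the 3 called members of each role with the largest HCC change, for the Mcm genes, Ccnd1, Cdk1 and Top2a, and for others singled out after their values were seen. Of other lists, up to 3 called genes in each direction (2 per marker list) are named, and all CDK inhibitors. Members and lists were chosen with earlier results of these data known. Alternatives were background, scaling, filter, probe choice, samples fitted, array weights, replicate block and left-out arrays. The fits were tested on simulated data. Promoter motifs were counted in Python 3.11.15 and figures drawn with matplotlib 3.10.9.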

Additional observations from a re-analysis of the deposited data

How the results depend on the processing

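The 20 calls in HCC became 13, all higher, with a log2 change of at least 1 asked for, 16 to 24 without single arrays, and 15 to 24 under the other alternatives. Among values of called members under alternatives, 340 kept direction and call, 39 lost the call and 1 reversed: Cdk4 was -0.101 with the mean of its probes. The replicate block in HCC, where same-numbered arrays were not taken as paired, gave 23 calls, and the block on those 6 arrays alone gave 19. In aggregates against non-aggregates the 0 calls became 1 with cyclic loess, 1 with the replicate block, 2 with only the arrays compared, 3 with array weights, 4 with the replicate block on those arrays (added after seeing the data) and 0 to 1 without single arrays; the call without aggregate replicate 1 was Ccnd1. The 7 differences became 4 without background correction, 14 with median scaling (median over all genes -0.236), 12 with the replicate block and 3 to 16 without single arrays. Pcna lost its difference in 18 of these fits, Nusap1 in 14, Ccne2 in 13 and Mcm6 in 10. The 2 calls of aggregates against normal hepatocytes became 1 without background correction, with the deposited values or without the filter, and 0 to 1 without single arrays; the replicate block gave 3. Non-aggregates against normal hepatocytes stayed at 0 in all alternatives run. The causes were not tested. The counts of this section stand without the share of all genes called in the same fit, so they describe the members only. Signal limits the rest: 8 members lay below the filter, and calls among dim probes rest on values near the detection limit. Without the filter Tpx2 was also called higher in HCC.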
